A study of Astyanax mexicanus with 6 samples.

Results

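In liver of the Mexican tetra, Astyanax mexicanus, 35 of 27420 annotated genes had a Surface level between those of the Pachon and Tinaja caves, clear of both. Members were chosen by their measured levels in all 6 libraries. Levels are CPM, the counts of a gene scaled to a common library size after TMM scaling, which assumes that most genes do not change. With 0.5 added to each CPM, a member had its Surface mean between both cave means. At each of the 2 steps, the lowest library of the higher population was at least 1.5 times the highest library of the lower one. The mean of the highest population was at least 2. Of the 35 genes, 19 were highest in Pachon and lowest in Tinaja, and 16 were highest in Tinaja and lowest in Pachon. Because all 6 libraries chose the members, the order of the populations and every fold change below describe the choice, and no test of them is support.

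The groups were Pachon and Tinaja, populations each named after its cave, and Surface, the river-dwelling form, with 2 polyA-selected, strand-specific liver libraries each. No treatment, genotype, age, sex or feeding state is stated in the sources used here, and no label says whether a population's libraries came from more than 1 fish. P-values therefore measure only the spread between these libraries, which may be technical. The 6 libraries held from 22168622 to 29521610 counts, and Tinaja 2 stood apart in that 15.77% of its counts came from 1 gene, against 4.1% to 8.28% in the other libraries.

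Cave populations of this species live in darkness with little food, and they are known for lost eyes and pigment, for storing fat and for withstanding starvation. The liver takes up, makes, stores and exports lipids and glucose and secretes most plasma proteins. Surface fish are the usual stand-in for the river-dwelling ancestor, against which each cave is compared. The count table names genes by Ensembl identifier only, and the reference table gave a symbol for 0 of them. No role is therefore given for any member, no pathway or marker list could be read, and the liver label was not checked against hepatocyte markers.

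Fewer genes had Surface in the middle than either cave. The rule gave 35 genes with Surface in the middle, against 99 with Pachon and 84 with Tinaja in the middle when it was applied to the other orders. These counts describe the same 6 libraries and were not tested.

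**Figure D1:**
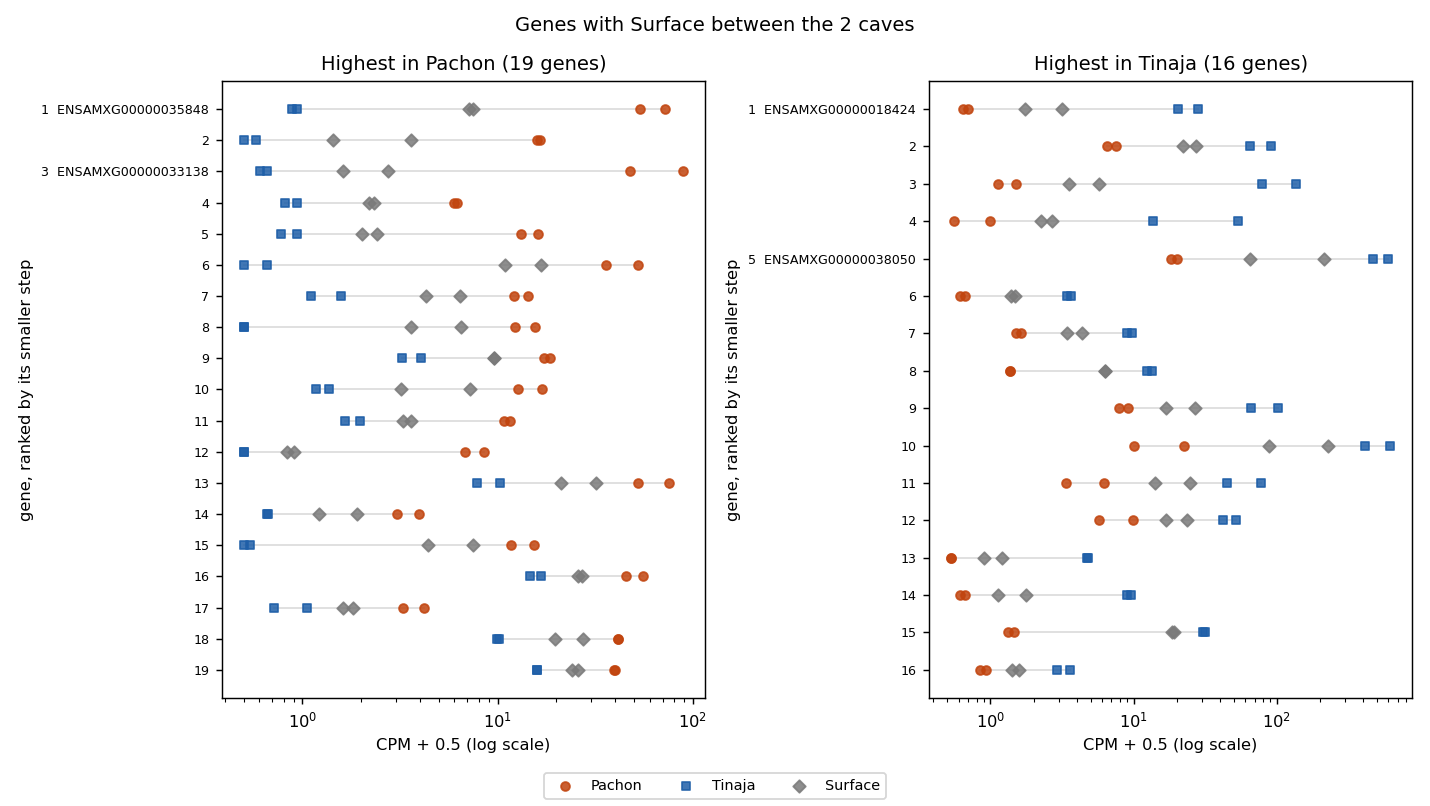
CPM plus 0.5 on a log axis for the 35 genes, 1 point per library, with the 19 genes highest in Pachon on the left and the 16 highest in Tinaja on the right. Genes run down each panel by their smaller step, and in each row the Surface points lie between those of the 2 caves, as the rule requires.

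Among genes highest in Pachon, ENSAMXG00000035848 had the largest smaller step, meaning the smaller of its 2 ratios between neighbouring populations. It had 53.2 and 71.8 CPM in Pachon 1 and 2, 0.436 and 0.383 CPM in Tinaja 1 and 2, and 6.6 and 6.93 CPM in Surface 1 and 2. Both Pachon libraries lay far above both Surface libraries, and both Tinaja libraries far below them. Its upper step was 7.23 and its lower step 7.58, whereas the next smaller step of any member was 2.48. The log2 excess of Pachon over Surface was 3.20 ± 0.22 (SE, edgeR adjusted p = 0.000441). Tinaja differed from Surface by -4.01 ± 0.27 (SE, edgeR adjusted p = 0.000509). In reads these levels rested on 4076 in Pachon, 18 in Tinaja and 315 in Surface over both libraries of each. In bulk liver, fewer cells of a type and less RNA per cell cannot be told apart, here and in the results that follow.

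ENSAMXG00000033138 had the highest mean CPM among the genes highest in Pachon. CPM is not divided by gene length, so a rank by CPM orders genes by reads, not by transcripts. It had 88.9 and 47.1 CPM in Pachon 1 and 2, 0.159 and 0.109 CPM in Tinaja 1 and 2, and 1.11 and 2.24 CPM in Surface 1 and 2. With 0.5 added to CPM, the Surface libraries lay nearer to Tinaja than to Pachon, with an upper step of 17.4 and a lower step of 2.45. The addition shortens the lower distance here, since both Tinaja libraries lay below 0.5 CPM. The fitted log2 differences were less uneven. Pachon exceeded Surface by 5.34 ± 0.46 (log2, SE, edgeR adjusted p = 0.00118). The log2 difference of Tinaja from Surface was -3.55 ± 0.66 (SE, edgeR adjusted p = 0.0162), resting on 6 Tinaja and 77 Surface reads. That call was lost without Tinaja 1 (log2 difference -3.87) and without Tinaja 2 (-3.35). Its lowest value over the alternatives came from DESeq2 (DESeq2 adjusted p = 5.17e-05).

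Among genes highest in Tinaja, ENSAMXG00000018424 had the largest smaller step, 2.48. It had 0.201 and 0.144 CPM in Pachon 1 and 2, 19.8 and 27.7 CPM in Tinaja 1 and 2, and 1.24 and 2.68 CPM in Surface 1 and 2. The Tinaja libraries stood well above the rest. With 0.5 added to CPM, Surface lay nearer Pachon, with steps of 6.36 above Surface and 2.48 below it. The addition shortens the lower distance here, and the fitted log2 differences were of similar size on both sides. The log2 difference of Pachon from Surface was -3.49 ± 0.51 (SE, edgeR adjusted p = 0.00579), on 11 Pachon and 90 Surface reads. Tinaja exceeded Surface by 3.61 ± 0.38 (SE, edgeR adjusted p = 0.00206), on 1005 Tinaja reads.

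ENSAMXG00000038050 had the highest mean CPM of all members. Its levels were 17.8 and 19.6 CPM in Pachon 1 and 2, 465.9 and 592.9 CPM in Tinaja 1 and 2, and 64.8 and 212.7 CPM in Surface 1 and 2. The populations did not overlap, but the Surface libraries differed from each other by more than 3-fold, a gap of 1.71 on the log2(CPM + 0.5) scale that was the widest of any member within Surface on that scale. Pachon differed from Surface by -2.90 ± 0.55 (log2, SE, edgeR adjusted p = 0.0147), and Tinaja exceeded Surface by 1.94 ± 0.53 (SE, edgeR adjusted p = 0.0488). Without Surface 2 these values were -1.81 and 3.04. The Pachon call was lost without Pachon 1 (log2 difference -2.84) and without Pachon 2 (-2.94). Its lowest value over the alternatives came from DESeq2 (DESeq2 adjusted p = 3.61e-07). The Tinaja call was lost without Pachon 1 (edgeR adjusted p = 0.0827), Pachon 2 (0.081), Surface 1 (0.0698), Tinaja 1 (0.121) or Tinaja 2 (0.198), and its lowest value over the alternatives was 0.00145.

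**Figure D2:**
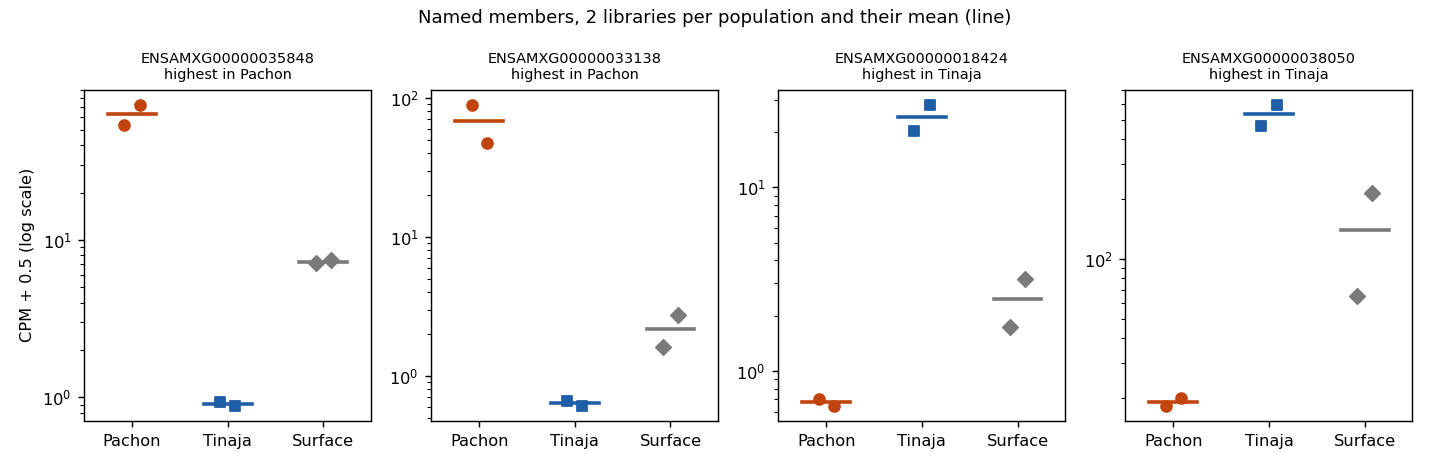
CPM plus 0.5 on a log axis for the 4 members named by identifier, with 2 points per population and a line at their mean. The Surface points of ENSAMXG00000035848 lie close together at 6.6 and 6.93 CPM before the addition, whereas those of ENSAMXG00000038050 lie apart at 64.8 and 212.7 CPM.

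Levels in the lowest cave were often small. The lowest population averaged under 1 CPM in 22 of the 35 members: Tinaja in 13 of the 19 genes highest in Pachon, and Pachon in 9 of the 16 highest in Tinaja. In 5 members it had at most 3 reads over both libraries. Genes without a name in the following are given by their rank in smaller step among the members with the same highest cave.

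Of the genes highest in Pachon, rank 8 had 11.7 and 15.1 CPM in Pachon 1 and 2, 0 reads in both Tinaja libraries, and 3.09 and 5.99 CPM in Surface 1 and 2. It was at least 196-fold higher in Pachon than in Tinaja, and Surface was at least 65-fold higher than Tinaja, with Tinaja set to a floor of 3 reads over its libraries. Rank 12 had 6.28 and 8.06 CPM in Pachon 1 and 2, again 0 reads in Tinaja, and 0.33 and 0.403 CPM in Surface 1 and 2. Here Surface itself was near the bottom, with 17 reads in all, 5.29-fold above the Tinaja floor, against 105-fold for Pachon. These bounds allow for counting error in the Tinaja reads alone, not in those of Pachon or Surface. The intervals below cover counting error only.

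Rank 15 of the same direction had 11.3 and 14.9 CPM in Pachon 1 and 2, 1 and 0 reads in Tinaja 1 and 2, and 7.01 and 3.89 CPM in Surface 1 and 2. Its pooled ratio of Pachon to Tinaja was 575, with an exact 95% counting interval of 103 to 22700. Rank 2 had 15.4 and 16 CPM in Pachon 1 and 2, 2 and 0 reads in Tinaja 1 and 2, and 3.09 and 0.939 CPM in Surface 1 and 2. Its ratio of Pachon to Tinaja was 342 (95% counting interval 94.4 to 2830). Among the genes highest in Tinaja, that of rank 13 had 1 read in each Pachon library, 4.25 and 4.27 CPM in Tinaja 1 and 2, and 0.701 and 0.403 CPM in Surface 1 and 2. Its Tinaja to Pachon ratio was 137 (95% counting interval 37.5 to 1140). In each of these 5 genes both Surface libraries held reads.

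Rank 6 among the genes highest in Pachon lay just past the limit of 3 reads, with 4 and 0 reads in Tinaja 1 and 2. It had 35.2 and 51.7 CPM in Pachon 1 and 2, and 10.4 and 16.1 CPM in Surface 1 and 2. Its lower step of 16.5 was the widest lower step of any member, against an upper step of 2.15.

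Surface was not bound to one end of the range. The distance of Surface from the lowest cave, as a share of the distance between the caves on the log2(CPM + 0.5) scale, had a median of 49.2% (range 20.1% to 73.8%) in the genes highest in Pachon. In the genes highest in Tinaja it had a median of 49% (range 28.2% to 84.1%). On this scale Surface lay nearer the lowest cave in 10 of 19 and 8 of 16 genes. The addition of 0.5 shortens the lower distance where the lowest cave has few reads, and it changes which cave is nearer in some genes. By the fitted log2 fold changes, fewer genes of each direction had Surface nearer the lowest cave. One such change was ENSAMXG00000035848, with fitted log2 differences from Surface of 3.20 in Pachon and -4.01 in Tinaja. No gene changed place the other way. The rule required a middle place of Surface and a step of at least 1.5 on each side. It therefore also limited how near Surface could lie to either end, most of all in genes with a narrow span. These shares are in part set by the choice of members.

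At one end of this range stood the gene of rank 15 among those highest in Tinaja. It had 0.835 and 0.953 CPM in Pachon 1 and 2, 29.8 and 31.1 CPM in Tinaja 1 and 2, and 18.6 and 18.2 CPM in Surface 1 and 2. Surface and Tinaja were thus within a step of 1.58 of each other, and Pachon lay below Surface by a step of 12.8. The edgeR log2 difference of Pachon from Surface was -4.36 ± 0.20 (SE, adjusted p = 0.000145), and that of Tinaja from Surface was 0.73 ± 0.17 (SE, adjusted p = 0.0273). Rank 3 in the same direction showed the reverse balance, with 1 and 0.636 CPM in Pachon 1 and 2, 136.3 and 78.3 CPM in Tinaja 1 and 2, and 3.01 and 5.23 CPM in Surface 1 and 2, with steps of 13.8 above Surface and 2.34 below it.

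Other members had narrow spans at moderate levels, where the required step on each side itself limited how uneven the spacing could be. In the gene of rank 19 among those highest in Pachon, the member with the narrowest span, levels were 39.1 and 39.6 CPM in Pachon 1 and 2, 15.5 and 15.3 CPM in Tinaja 1 and 2, and 23.6 and 25.3 CPM in Surface 1 and 2. Replicates differed little here, and the log2 differences from Surface were 0.68 ± 0.17 for Pachon and -0.66 ± 0.17 for Tinaja (SE, edgeR adjusted p = 0.0322 and 0.0389). Rank 16 was similar, with 44.8 and 55 CPM in Pachon 1 and 2, 16.2 and 14.2 CPM in Tinaja 1 and 2, and 25.4 and 26.4 CPM in Surface 1 and 2. In the gene of rank 18 the levels were 40.8 and 40.9 CPM in Pachon 1 and 2, 9.4 and 9.68 CPM in Tinaja 1 and 2, and 26.8 and 19.1 CPM in Surface 1 and 2. Its spacing was less even, with steps of 1.51 above Surface and 1.93 below it. These 3 genes were the genes highest in Pachon that lay nearest the required step, apart from that of rank 17, at 2.77 and 3.7 CPM in Pachon, 0.556 and 0.219 CPM in Tinaja and 1.32 and 1.12 CPM in Surface. The other genes of this direction not described singly ranged in mean level from 2.99 to 63.3 CPM in Pachon, 0.161 to 8.56 CPM in Tinaja and 1.06 to 26.1 CPM in Surface.

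In the other direction, the genes of rank 2 and 7 had wider spans and nearly even spacing. That of rank 2 had 6.02 and 7.02 CPM in Pachon 1 and 2, 90.7 and 64.7 CPM in Tinaja 1 and 2, and 21.7 and 26.6 CPM in Surface 1 and 2. That of rank 7 had 1 and 1.13 CPM in Pachon 1 and 2, 8.45 and 9.25 CPM in Tinaja 1 and 2, and 2.93 and 3.85 CPM in Surface 1 and 2. In both, each step was at least 2. The remaining genes of this direction ranged from mean levels of 0.141 to 15.7 CPM in Pachon, 2.77 to 516.6 CPM in Tinaja and 0.942 to 157.6 CPM in Surface.

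The mean of the highest population had a median of 17.4 CPM over the 35 members, against 6.75 CPM over all 15282 genes tested, whose levels were not limited by the rule. In the genes highest in Pachon this mean ran from 2.99 to 68 CPM, and in those highest in Tinaja from 2.77 to 529.4 CPM. A mean of at least 100 CPM was reached by 0 genes of the Pachon direction and by 3 of the Tinaja direction, against 7.3% of all tested genes. The difference between the directions was not tested.

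Summed over the 19 genes highest in Pachon, levels were 500.1 and 495.7 CPM in Pachon 1 and 2, 57.5 and 56.1 CPM in Tinaja 1 and 2, and 170.1 and 151.5 CPM in Surface 1 and 2. The replicates of each population were close to each other. Summed over the 16 genes highest in Tinaja, levels were 56.9 and 73.8 CPM in Pachon 1 and 2, 1602 and 1496 CPM in Tinaja 1 and 2, and 276.1 and 562.8 CPM in Surface 1 and 2. The gap between the Surface libraries came with the 2 genes of most reads: without them the sums were 29.6 and 32.3 CPM in Pachon, 516.8 and 489.7 CPM in Tinaja, and 123.1 and 123.1 CPM in Surface. All members of a direction took at most 0.162% of the counts of any library.

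Median log2(CPM + 0.5) gaps between replicates are given for genes highest in Pachon, those highest in Tinaja and all tested genes. They were 0.474, 0.452 and 0.26 in Surface, 0.336, 0.137 and 0.205 in Pachon, and 0.198, 0.328 and 0.259 in Tinaja. On the CPM + 0.5 scale, replicates of a population differed by more than 2-fold in 5 members, a share that was not counted over all genes. Apart from ENSAMXG00000038050, these were the genes of rank 4 and 10 among those highest in Tinaja and of rank 2 and 10 among those highest in Pachon. Rank 4 had 0.501 and 0.0578 CPM in Pachon 1 and 2, 13.3 and 53.3 CPM in Tinaja 1 and 2, and 2.18 and 1.74 CPM in Surface 1 and 2. Its Tinaja libraries differed by 1.97 on the log2(CPM + 0.5) scale, the widest gap of any member, with Tinaja 2 higher. Rank 10 among the genes highest in Tinaja had 9.49 and 22 CPM in Pachon 1 and 2, 619.6 and 413.7 CPM in Tinaja 1 and 2, and 88.2 and 227.1 CPM in Surface 1 and 2. As in ENSAMXG00000038050, Surface 2 and Pachon 2 were the higher libraries, while Tinaja 1 exceeded Tinaja 2 in this gene and not in that one.

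In edgeR's test over all 15282 genes, each of the 35 members passed the filter on low counts. Of the 19 genes highest in Pachon, 19 were called higher than Surface in Pachon (adjusted p below 0.05), a direction called in 8.8% of all genes, and 18 were called lower than Surface in Tinaja, against 7.66% of all genes. Of the 16 genes highest in Tinaja, 15 were called lower in Pachon, against 8.11% of all genes, and 14 higher in Tinaja, against 8.12%. Between the caves, 19 genes were called higher in Pachon than in Tinaja, against 4.47% of all genes, and 16 lower, against 4.75%, so that 35 members were called there in either direction, against 9.22% of all genes. In either direction 34 members were called in Pachon against Surface and 32 in Tinaja against Surface, against 16.9% and 15.8% of all genes. The rule used these contrasts, so the counts are given as a description. Both cave comparisons share the Surface libraries.

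Over the 19 genes highest in Pachon the log2 fold change had a median of 1.55 in Pachon against Surface, where that of all tested genes was -0.01. In Tinaja against Surface their median was -2.50, or -2.40 with the 2 genes that had no Tinaja read set to their bound, where that of all genes was 0.000154. For the 16 genes highest in Tinaja the medians were -2.73 in Pachon against Surface and 1.71 in Tinaja against Surface. Between Pachon and Tinaja the medians were 4.16 for the 19 genes and -4.63 for the 16.

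Opposite calls in both cave comparisons were made for 31 of the 35 members, 18 highest in Pachon and 13 highest in Tinaja, against 0.288% of all tested genes. The other 4 members each missed 1 call. The gene of rank 17 among those highest in Pachon missed the call of Tinaja against Surface (log2 difference -1.58 ± 0.45, SE, edgeR adjusted p = 0.0553). The gene of rank 4 among those highest in Tinaja missed the call of Pachon against Surface (-2.86 ± 1.13, SE, edgeR adjusted p = 0.153). The genes of rank 10 and 11 in that direction missed the call of Tinaja against Surface, at 1.72 ± 0.56 and 1.70 ± 0.46 (SE, edgeR adjusted p = 0.0832 and 0.0558). All 4 were called between the caves. With 1 library left out, fewer members were called on opposite sides, whichever library it was. In both cave comparisons fewer members were then called than with all libraries, and fewer of all tested genes as well. The falls in single calls are therefore not particular to the members. Opposite calls over all genes were not counted in these fits. The ranges are given below with the processing.

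**Figure D3:**
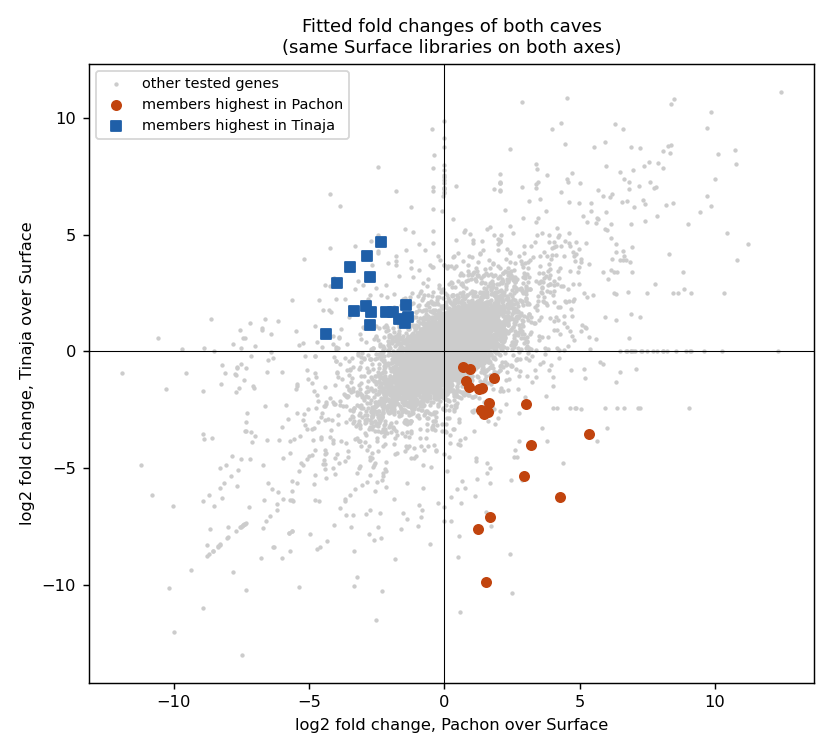
Log2 fold change of Pachon over Surface on the x axis and of Tinaja over Surface on the y axis for the 15282 genes tested, with the 35 members in colour. The 19 members highest in Pachon lie at the lower right and the 16 highest in Tinaja in the upper left, as the rule requires; both axes use the same Surface libraries.

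Near the required step the members passed into other genes without a gap. The 3 genes highest in Pachon just inside it had smaller steps of 1.51, 1.51 and 1.53, and the 3 just outside 1.497, 1.489 and 1.484. In the Tinaja direction the 3 just inside had smaller steps of 1.51, 1.58 and 1.69, and the 3 just outside 1.487, 1.483 and 1.471. At the minimum level or above, 3642 genes had their Surface mean between both cave means. In 850 of them no libraries of different populations overlapped. No such count is given for the other orders of the populations, so 850 cannot be read as many or few. Of the 850 genes, 690 had a smaller step under 1.2, 125 from 1.2 to under 1.5, 22 from 1.5 to under 2, and 13 of at least 2.

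**Figure D4:**
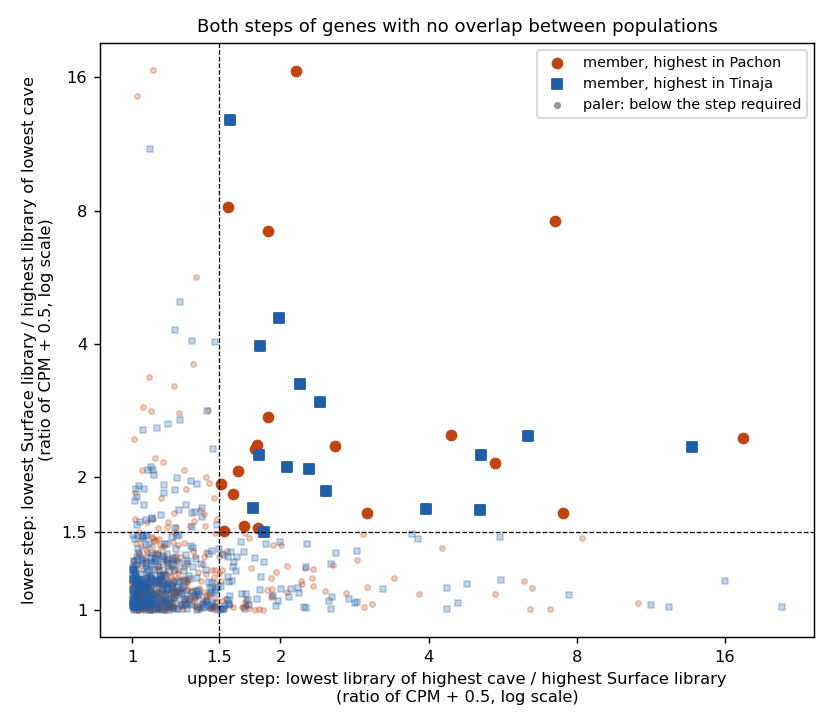
Upper step on the x axis and lower step on the y axis, both ratios of CPM plus 0.5 on log axes, for the 850 genes with Surface in the middle and no overlap between populations. Dashed lines mark the step of 1.5, and the 35 members beyond both lines include ENSAMXG00000035848 at 7.23 and 7.58, the single member with both steps above 4.

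The rule was also applied to 5 libraries at a time, and the sixth was then placed. Without Pachon 1, 71 genes met the rule, and in 59 of them Pachon 1 lay on its side of both Surface libraries (83.1%). Without Pachon 2 this held in 47 of 53 genes (88.7%). Tinaja 1 lay on its side in 59 of 87 genes (67.8%) and Tinaja 2 in 47 of 50 (94%). Surface 1 fell between the caves in 71 of 92 genes (77.2%) and Surface 2 in 81 of 107 (75.7%). The genes that met the rule on 5 libraries included 34 or 35 of the 35 members in each case. That was nearly fixed in advance, since all libraries chose the members and leaving 1 out mostly makes the rule easier. The sixth library had only to lie on its side of Surface, or between the caves, without the required step. Members made up from 32.7% (without Surface 2) to 70% (without Tinaja 2) of the genes that met the rule on 5 libraries. No matching share over all genes was computed for the percentages on the sixth library. These percentages therefore describe the libraries and cannot be read as replication of the pattern. A single library left in a population makes the rule easier to meet, so the larger counts follow in part from its construction.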

How the data were processed

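The authors deposited a table of whole-number read counts per Ensembl gene identifier for 6 libraries, which the values show to be unnormalised. The submitters' processing notes name bcl2fastq 2.20 and STAR, with no STAR version. The table's name points to assembly build 2 and Ensembl release 96. How reads were counted, whether by strand and with what rule for reads shared between genes, is not given in the sources used here. Near-identical copies, overlapping genes and antisense genes therefore have uncertain counts. The table had 0 columns beyond the 6.

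CPM were computed with edgeR 4.0.16 in R 4.3.3, with TMM over all table genes. Tests were two-sided and used edgeR's quasi-likelihood method with robust fitting, a term per population, TMM recomputed on the 15282 genes kept by edgeR's filter (count minimum 10), 3 residual degrees of freedom and Benjamini-Hochberg adjustment over all genes tested. A gene is called at an adjusted p below 0.05. Standard errors were back-calculated from the F statistic. SE and p belong to log2 fold changes. Alternatives included DESeq2 1.42.0. The test and the rule were run on simulated counts. Recovery was required there only of the test, at shifts wider than those of most members. Recovery of smaller shifts, and members among genes left unchanged, were counted there without a required level and are not given here. The requirement itself therefore does not tell how well smaller shifts are recovered. Pairs of libraries had a chi-square of at least 167.1 per degree of freedom, and none was counted as a duplicate. Replicate pairs had 171 in Pachon, 167.1 in Surface and 224.4 in Tinaja. Pachon 1 and Tinaja 1 had 172.9, so Tinaja 1 was nearer to Pachon 1 than to Tinaja 2 on this measure. The other pairs of different populations had 381.6 to 1011. The cause was not tested.

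The members, the rule and the lists were chosen with earlier results of these data known. Of the members, 4 are named by identifier: in each direction the one with the largest smaller step and the one with the highest mean CPM. The others are given by rank. The 18 pathway lists and the markers prepared could not be read without symbols. Sequences and coordinates were not used here.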

Additional observations from a re-analysis of the deposited data

Results flagged for a closer look

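The 4 members named by identifier, which were picked by rank, are given here with the test of Pachon against Tinaja. All 35 members were called in that test, so it does not set these 4 apart. The rule chose them on this contrast, so the test is no separate support. The log2 difference of Pachon from Tinaja was 7.21 ± 0.28 for ENSAMXG00000035848 (SE, edgeR adjusted p = 0.000147) and 8.89 ± 0.60 for ENSAMXG00000033138 (SE, edgeR adjusted p = 0.000654). It was -7.10 ± 0.49 for ENSAMXG00000018424 (SE, edgeR adjusted p = 0.000643) and -4.84 ± 0.60 for ENSAMXG00000038050 (SE, edgeR adjusted p = 0.00554). For the last the call was lost without Pachon 2, at a log2 difference of -4.87. Over its 10 alternatives the lowest value came from DESeq2 (DESeq2 adjusted p = 2.57e-19). Each difference had both Pachon libraries on the same side of both Tinaja libraries. With 2 libraries per population, no test for a single outlying library was made.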

How the results depend on the processing

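Membership depended on the settings of the rule. With 0.1 added to CPM there were 57 members, 31 of them highest in Tinaja. With 2 added there were 19, 9 highest in Pachon and 10 in Tinaja, all among the 35. A step of at least 2 left 13, 6 and 7. Total-count scaling put the median gene at a log2 fold change of 0.55 in Pachon against Surface. It gave 45 members, 31 highest in Pachon and 14 in Tinaja, and kept 28 of the 35. With 1 library left out, members numbered 50 to 107, those highest in Pachon 23 to 61 and those highest in Tinaja 27 to 47. RLE factors and no minimum level gave 36 each, and a minimum mean of 10 gave 26.

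In the tests, total-count scaling raised the called genes to 4599 in Pachon against Surface (85.4% higher, against 52%) and 2771 in Pachon against Tinaja (83% higher, against 48.5%). Leaving out 1 library gave 937 to 2318 called genes in Pachon against Surface, 878 to 1812 in Tinaja against Surface and 352 to 1360 in Pachon against Tinaja. Members called then numbered 16 to 29, 16 to 28 and 33 to 35, and opposite calls 14 to 18. A lone library is assumed there to vary like the other populations. With the replicate block 28, 27 and 34 members were called, 23 on opposite sides. Over all 15282 genes tested, that fit called 2136, 1956 and 1043. Opposite calls over all genes were counted neither in that fit nor with 1 library left out, so those of the members have no share beside them. Deviations of same-numbered libraries correlated at 0.0412 for Pachon and Surface, 0.0194 for Tinaja and Surface and -0.114 for Pachon and Tinaja. Each value compares a single pair of libraries per population, so it cannot decide whether equal replicate numbers mark a shared batch. The labels do not say what these numbers mean. DESeq2 called 31, 34 and 35 members, beside 2863, 2767 and 1876 of all 17134, 16708 and 17134 genes it tested. The rule chose the members on these contrasts, so their counts under any fit are a description. The members fitted kept their sign under all 12 alternative fits of each comparison, 1 being untested with only the populations compared. Of 120 alternative values of the 4 named members, 10 lost the call and 0 changed sign; the causes were not tested. Members near 0 reads in 1 cave are limited by depth.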

Other observations

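Opposite calls against Surface were also made for 13 genes that are not members. In each, the populations did not overlap, but the smaller step was below 1.5, with a lowest value of 1.16, a median of 1.42 and a highest value of 1.49. In 2 of the 13 the highest population was below the minimum level as well. Over all 44 genes with opposite calls, 23 were higher in Pachon than Surface and lower in Tinaja, and 21 the reverse.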
